A study of Mus musculus with 12 samples.

Results

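The genes described here encode enzymes that break down amino acids and a few related small molecules. A list of 41 such genes was matched by gene symbol to the probe sets of a mouse expression array, and 40 of them had a probe set that names the gene alone, out of 18193 genes so represented. Amt, an enzyme of the glycine cleavage system, had none and is not measured here. The study compared ways of amplifying nanogram amounts of total RNA. This series holds 12 arrays in 4 groups of 3: mouse kidney RNA bought from Ambion and amplified from 10 ng, and a universal mouse reference RNA (supplier spelled Strategene in the labels) amplified from 10 ng, 3 ng and 0.3 ng. All 12 titles include the letters pRS, which no label explains. The strain, age, sex, treatment and number of the animals behind the kidney RNA are likewise unstated in the labels. A universal reference RNA is a pool of RNA from cell lines, so it is no single tissue and no healthy control.

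Animals do not store surplus amino acids. Each is stripped of its nitrogen, mostly by aminotransferases and glutamate dehydrogenase, and its carbon skeleton is cut down to intermediates that enter the citric acid cycle, glucose or ketone bodies. Liver is the main site for many of these routes, and the proximal tubule of the kidney, which takes filtered amino acids back from the urine, is another. Kidney is also the textbook site of inositol breakdown and of the first step of creatine synthesis, and it oxidises D-amino acids.

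Signals are in the deposited linear units, in which the trimmed mean of every array is 500. Within the text, kidney against reference means the 10 ng arrays unless another input is named. A signal under 33.65, the background level set by bacterial control probe sets, is not a measured level. Where all 3 reference arrays lay below it, the fold is written as "at least", the mean kidney signal (averaged as log2) over the background level. Fold changes and their standard errors (SE) are on the scale log2(signal + 3.9) and come from limma fitted to all tested probe sets, and a gene was called at an adjusted p under 0.05. A p beside an "at least" fold belongs to the fitted change, which uses the signals under background, and does not test the bound. Probe sets differ in how brightly they report, so signals of different genes are not set against each other. The labels do not say whether the 3 arrays of a group came from separate extractions or amplifications, so a p-value here reflects only how far these arrays spread, which may be technical. In bulk RNA, fewer cells of a type and less RNA in each cell cannot be told apart.

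Of the 40 measured amino acid breakdown genes, all 40 were bright enough to be tested. In kidney against reference, 38 were called higher, 0 lower and 2 were not called. Over all 12820 tested genes, 27.1% were called higher and 35.6% lower in the same comparison. At an unadjusted p under 0.05 the counts were likewise 38 higher and 0 lower, where 67.2% of all tested genes passed in either direction. The median log2 fold change was 3.35 over the members and -0.19 over all tested genes. With signals under background raised to that level, the member median was 3.36. Measured that way, 12 members differed at least 32-fold, 10 between 8-fold and 32-fold, 14 between 2-fold and 8-fold, and 4 by under 2-fold. All 40 were at or above background on every kidney array, whereas 8 were below it on every reference array at 10 ng. Over all tested genes, 4.44% were below background on every reference array at 10 ng. In 38 members no kidney array overlapped any reference array. The share of all tested genes without overlap was not counted, so this count cannot be set against the other genes. A gene was tested when any 1 of the groups was bright, so members below background in the reference entered through the kidney arrays. The list was drawn up with earlier results of these data in view, and the count describes the list.

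**Figure D1:**
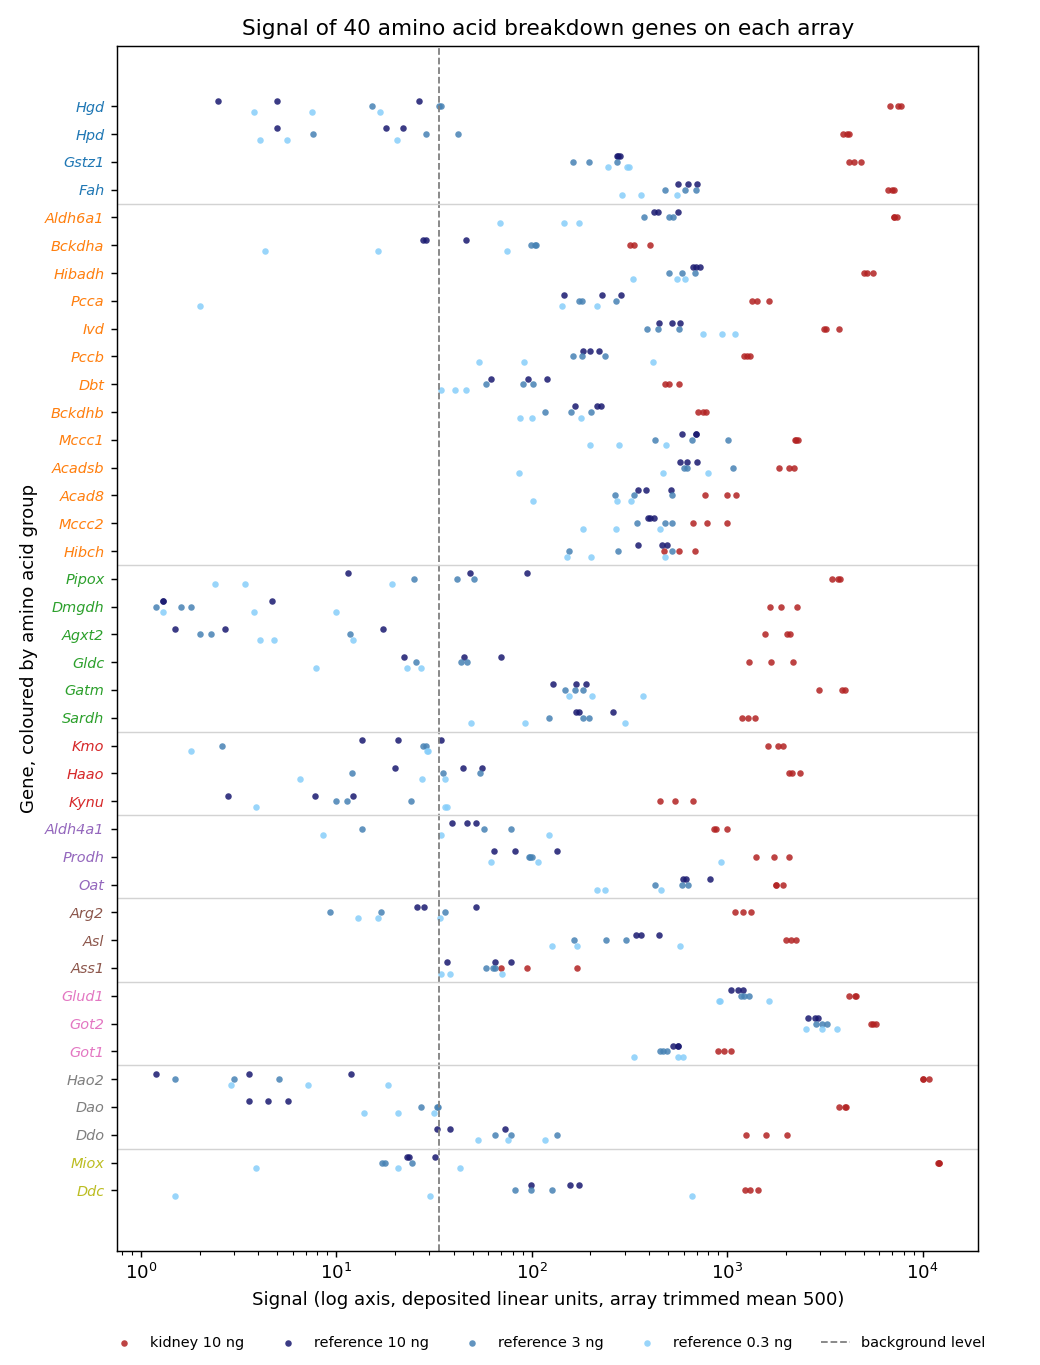
Signal of each of the 40 measured genes (rows, coloured by amino acid group and ordered within a group by the kidney against reference change) on each of the 12 arrays, on a log axis in deposited units; each point is 1 array and the dashed line is the background level of 33.65. Kidney points lie to the right of the 3 reference groups for nearly every gene, with overlap at 10 ng for Hibch and Ass1.

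The highest lower bounds belonged to an oxidase of hydroxy acids and an oxygenase of inositol. Hao2, a peroxisomal oxidase of hydroxy acids, lies at chr3:98874519-98895376 (GRCm38.p6), and Miox, which opens the ring of myo-inositol in the first committed step of its breakdown, lies at chr15:89334473-89337007. Promoters of members with wide and narrow differences are shown because their base composition differed. The windows are the 250 bases before the start of Miox and of Hpd, an enzyme of tyrosine breakdown, and they come from RefSeq on GRCm38.p6, on the gene's own strand and 5′ to 3′, with each CpG dinucleotide in capitals. Below them stand the same windows of Got1 and Mccc2, the called members with the smallest changes by each gene's brightest probe set. Shown are the members with the largest and smallest called changes among those with 1 listed start that coincides with the gene's start in the RefSeq gene table. Hao2 has none shown, since its listed start lies inside the gene's span.
Miox (chr15:89334223-89334472, plus strand): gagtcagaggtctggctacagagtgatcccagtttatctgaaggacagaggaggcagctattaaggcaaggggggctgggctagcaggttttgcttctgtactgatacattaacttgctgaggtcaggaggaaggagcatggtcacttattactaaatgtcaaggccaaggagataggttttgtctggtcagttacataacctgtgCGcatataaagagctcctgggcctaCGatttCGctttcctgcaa
Hpd (chr5:123182724-123182973, minus strand): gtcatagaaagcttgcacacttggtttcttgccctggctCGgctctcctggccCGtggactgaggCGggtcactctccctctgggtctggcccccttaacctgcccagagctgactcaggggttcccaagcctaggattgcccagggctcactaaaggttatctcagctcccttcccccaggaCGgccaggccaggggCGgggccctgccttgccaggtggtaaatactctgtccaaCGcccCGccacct
Got1 (chr19:43524606-43524855, minus strand): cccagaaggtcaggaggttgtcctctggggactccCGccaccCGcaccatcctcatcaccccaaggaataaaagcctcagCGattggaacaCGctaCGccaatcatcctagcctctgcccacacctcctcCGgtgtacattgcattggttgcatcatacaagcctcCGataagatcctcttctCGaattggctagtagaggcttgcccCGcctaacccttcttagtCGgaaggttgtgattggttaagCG
Mccc2 (chr13:100015640-100015889, minus strand): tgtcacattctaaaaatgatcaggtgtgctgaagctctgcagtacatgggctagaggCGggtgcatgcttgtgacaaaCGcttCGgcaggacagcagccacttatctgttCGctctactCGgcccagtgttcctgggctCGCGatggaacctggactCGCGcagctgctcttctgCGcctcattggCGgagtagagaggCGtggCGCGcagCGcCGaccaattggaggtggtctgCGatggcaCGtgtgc
These windows hold 3 CpG for Miox, 7 for Hpd, 11 for Got1 and 18 for Mccc2.

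Signals of Hao2 were 10023, 10794 and 10072 on the 3 kidney arrays and 11.9, 1.2 and 3.6 on the reference arrays. Kidney was at least 306-fold higher (limma adjusted p = 2.71e-05), and the reference arrays all sat below background. For Miox the kidney arrays read 12038, 12118 and 12163, the reference arrays 22.9, 23.5 and 32, all below background. The difference was at least 360-fold (limma adjusted p = 3.81e-06). Dao, the D-amino acid oxidase of peroxisomes, gave 4049, 3746 and 4012 in kidney and 5.7, 3.6 and 4.5 in the reference. That is at least 117-fold higher in kidney (limma adjusted p = 3.81e-06). Its counterpart for acidic D-amino acids, Ddo, the D-aspartate oxidase, read 1247, 1583 and 2018 against 38.4, 32.7 and 73.3. Here 1 reference array lay just under background and the others above it, and the log2 difference was 5.01 ± 0.34 (SE) (limma adjusted p = 0.000129). Ddc, the decarboxylase that makes dopamine and serotonin from aromatic precursors, read 1436, 1234 and 1313 in kidney and 156, 99.7 and 174 in the reference. Every kidney array was above every reference array, with a log2 difference of 3.21 ± 0.23 (SE) (limma adjusted p = 0.000165).

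The tyrosine route divided into enzymes that were below background in the reference and enzymes that were not. All 4 measured members rose (median log2 fold change 5.94, or 5.47 with signals raised to background). Hpd, which converts the keto acid of tyrosine to homogentisate, read 4121, 4200.1 and 3918 in kidney and 22.0, 5.0 and 18.0 in the reference. The reference values were all below background, so kidney was at least 121-fold higher (limma adjusted p = 5.71e-05). The next enzyme, Hgd, opens the ring of homogentisate and is the gene mutated in alkaptonuria (chr16:37579742-37632026). It read 6830.0, 7522 and 7731 in kidney against 5.0, 26.5 and 2.5 in the reference, at least 218-fold higher (limma adjusted p = 0.0001). Downstream, Gstz1, the maleylacetoacetate isomerase, was clearly present in both RNAs, at 4201, 4461 and 4824 in kidney and 283, 277 and 275 in the reference. The kidney arrays were higher by 3.99 ± 0.12 (SE) on the log2 scale (limma adjusted p = 1.15e-05). Fah, the fumarylacetoacetase whose loss causes hereditary tyrosinemia, read 6630.4, 6983 and 7173 against 703, 631 and 558. It too was above background on every array and higher in kidney by 3.46 ± 0.14 (SE) on the log2 scale (limma adjusted p = 2.66e-05). A second Hgd probe set, much dimmer in kidney, differed by 1.29 on the log2 scale and was not called (limma adjusted p = 0.0654).

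Breakdown of the branched-chain amino acids leucine, isoleucine and valine was the largest group, and its differences were moderate. Of 13 members, 12 rose and 1 was not called, with a median log2 fold change of 2.49. The entry complex, branched-chain keto acid dehydrogenase, rose in the 3 subunits measured: Bckdha and Bckdhb form its decarboxylase and Dbt its transacylase core. Bckdha gave 318, 404 and 334 in kidney and 27.8, 28.9 and 46.0 in the reference. Of the reference arrays 2 were just below background, and the log2 difference was 3.25 ± 0.22 (SE) (limma adjusted p = 0.000138). Bckdhb (mean signal 749 in kidney, 202 in the reference) differed by 1.88 and Dbt (519.8 and 92.6) by 2.49 on the log2 scale, with no overlap of arrays in either.

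In the leucine branch, Ivd, the isovaleryl-CoA dehydrogenase, averaged 3361 in kidney and 515 in the reference, a log2 difference of 2.70. Mccc1 and Mccc2, the subunits of methylcrotonyl-CoA carboxylase, differed by 1.77 and 0.99. Mccc2 was the smallest called change of the group, at 667, 1002 and 789 in kidney and 421, 392 and 402 in the reference (limma adjusted p = 0.00501). No kidney array of this Mccc2 probe set fell to the level of a reference array. A second, dimmer Mccc2 probe set differed by 1.645 and was called (limma adjusted p = 0.00216), so the rank depends on the probe set. In the isoleucine branch Acadsb, a short and branched-chain acyl-CoA dehydrogenase, differed by 1.68.

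The valine branch held both the largest and the smallest change of the group. Acad8, the isobutyryl-CoA dehydrogenase, differed by 1.20 on the log2 scale (limma adjusted p = 0.0053). Hibch, the hydrolase that frees hydroxyisobutyrate from CoA, gave 475, 688 and 569.7 in kidney and 489.8, 352 and 463 in the reference. The lowest kidney array was below the highest reference array, and the log2 difference of 0.40 ± 0.21 (SE) was not called (limma adjusted p = 0.139). Its second probe set, with 263, 257 and 216 in kidney and 219, 104 and 118 in the reference, also overlapped between the groups and was not called either (log2 difference 0.80, limma adjusted p = 0.0616). The following enzyme, Hibadh, the hydroxyisobutyrate dehydrogenase, read 5183, 5552 and 5024 in kidney and 667, 695 and 724 in the reference. Kidney was higher by 2.91 ± 0.12 (SE) on the log2 scale (limma adjusted p = 2.75e-05). Aldh6a1, which carries the last oxidation of the valine skeleton, read 7125, 7360.1 and 7164 against 561, 442 and 422. At 3.93 ± 0.15 (SE) on the log2 scale (limma adjusted p = 2.47e-05), it had the largest change among the 13.

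Propionyl-CoA carboxylase, at which valine and isoleucine carbon meets the route to succinyl-CoA, is built from the products of Pcca and Pccb. Pcca read 1338, 1641 and 1416 in kidney and 228, 146 and 288 in the reference, a log2 difference of 2.76 ± 0.27 (SE) (limma adjusted p = 0.000469). Pccb averaged 1267 and 201, a difference of 2.64. Both subunits were higher on every kidney array than on any reference array.

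Glycine, its methylated forms and creatine precursors made up a group of 7 listed genes, of which 6 were measured and all 6 rose (median log2 fold change 5.80, or 5.47 with signals raised to background). Dmgdh, which takes a methyl group from dimethylglycine in the mitochondrion, gave 1649, 1891 and 2279 in kidney and 1.3, 4.7 and 1.3 in the reference. Every reference array was far under background, so kidney was at least 57.1-fold higher (limma adjusted p = 1.24e-05). Agxt2, a mitochondrial aminotransferase that uses glyoxylate as acceptor, read 2022, 1565 and 2098 in kidney and 1.5, 2.7 and 17.3 in the reference. Its reference arrays were also below background, and kidney was at least 55.9-fold higher (limma adjusted p = 0.000142). Pipox, the peroxisomal oxidase of sarcosine and pipecolate, read 3449.6, 3800.2 and 3676 in kidney and 11.5, 94.8 and 48.4 in the reference. Reference arrays 2 and 3 were above background and array 1 was not. The log2 difference was 6.41 ± 0.66 (SE) (limma adjusted p = 0.000591), or 6.08 with the low array raised to background. Gldc, the decarboxylase of the glycine cleavage system, read 1686, 1287 and 2167 against 22.2, 45.3 and 70.1, with a log2 difference of 5.20 ± 0.42 (SE) (limma adjusted p = 0.000239). Every kidney array stood far above the highest reference array. Gatm, which makes the creatine precursor guanidinoacetate, averaged 3603 in kidney and 162 in the reference. Its log2 difference was 4.45, and that of Sardh, the mitochondrial sarcosine dehydrogenase, was 2.68.

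All 3 measured enzymes of the kynurenine route of tryptophan rose (median log2 fold change 5.74, or 5.65 with signals raised to background). Kmo, which hydroxylates kynurenine on the outer mitochondrial membrane, read 1819, 1609 and 1933 in kidney and 34.3, 13.5 and 20.7 in the reference. One reference array was just above background, and the log2 difference was 6.14 ± 0.30 (SE) (limma adjusted p = 4.57e-05). Kynu, the kynureninase, read 666, 452 and 539.8 against 2.8, 12.2 and 7.8. All reference arrays were under background, giving at least 16.2-fold (limma adjusted p = 9.77e-05). Haao, which opens the ring of hydroxyanthranilate on the way to NAD, read 2066, 2159 and 2359.8 against 44.5, 56.0 and 20.1. The log2 difference was 5.74 ± 0.35 (SE) (limma adjusted p = 9.4e-05), with 1 reference array below background.

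Proline and ornithine meet at the intermediate pyrroline-carboxylate, and all 3 enzymes listed there rose. Prodh, the proline dehydrogenase of the inner mitochondrial membrane, gave 1411, 1736 and 2068 in kidney and 136, 64.5 and 82.0 in the reference. Kidney was higher by 4.20 ± 0.31 (SE) on the log2 scale (limma adjusted p = 0.000166). Aldh4a1, which turns pyrroline-carboxylate into glutamate, read 856, 1002 and 873 in kidney and 46.9, 52.2 and 39.0 in the reference. Reference levels were only slightly above background, and the log2 difference was 4.20 ± 0.16 (SE) (limma adjusted p = 2.23e-05). Oat, the ornithine aminotransferase, was well above background in both RNAs, at 1770.1, 1785 and 1921 in kidney and 814, 597 and 614 in the reference. Its difference was the smallest of the 3, 1.44 ± 0.16 (SE) (limma adjusted p = 0.00083).

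Of the 3 genes of the urea cycle and arginine, 2 rose. Asl, which splits argininosuccinate into arginine and fumarate, read 2000.3, 2134 and 2264 in kidney and 446, 362 and 341 in the reference, a log2 difference of 2.47 ± 0.15 (SE) (limma adjusted p = 9.49e-05). Arg2, the mitochondrial arginase, read 1094, 1203 and 1324 against 25.8, 51.7 and 28.3. Of its reference arrays 2 were below background and all kidney arrays were far above it, and the log2 difference was 5.0 ± 0.27 (SE) (limma adjusted p = 6.05e-05). Ass1, the argininosuccinate synthase that precedes Asl, read 169.8, 69.9 and 94.8 in kidney and 65.2, 36.9 and 78.5 in the reference. The groups overlapped and the log2 difference of 0.82 ± 0.41 (SE) was not called (limma adjusted p = 0.133). The only probe set naming Ass1 alone is dim in both RNAs. A brighter probe set that names Ass1 together with other genes was not used here. The lack of a call for Ass1 therefore rests on the dim probe set alone.

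The enzymes at the hub of nitrogen exchange showed the smallest group change, a median log2 fold change of 1.01 over 3 members that all rose. Glud1, the mitochondrial glutamate dehydrogenase that frees ammonium, read 4553, 4211 and 4518 in kidney and 1203, 1044 and 1133 in the reference. The log2 difference was 1.97 ± 0.12 (SE) (limma adjusted p = 9.99e-05). Got1, the cytosolic aspartate aminotransferase, read 1048, 964 and 903 against 558, 558 and 529, and its difference of 0.82 ± 0.12 (SE) was the smallest of any called member (limma adjusted p = 0.00241). Got2, the mitochondrial form, read 5755, 5594 and 5439 against 2821, 2912 and 2601. It differed by 1.01 ± 0.12 (SE) (limma adjusted p = 0.00093). Small as they were, these differences exceeded the spread, since no kidney array overlapped a reference array in any of the 3.

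**Figure D2:**
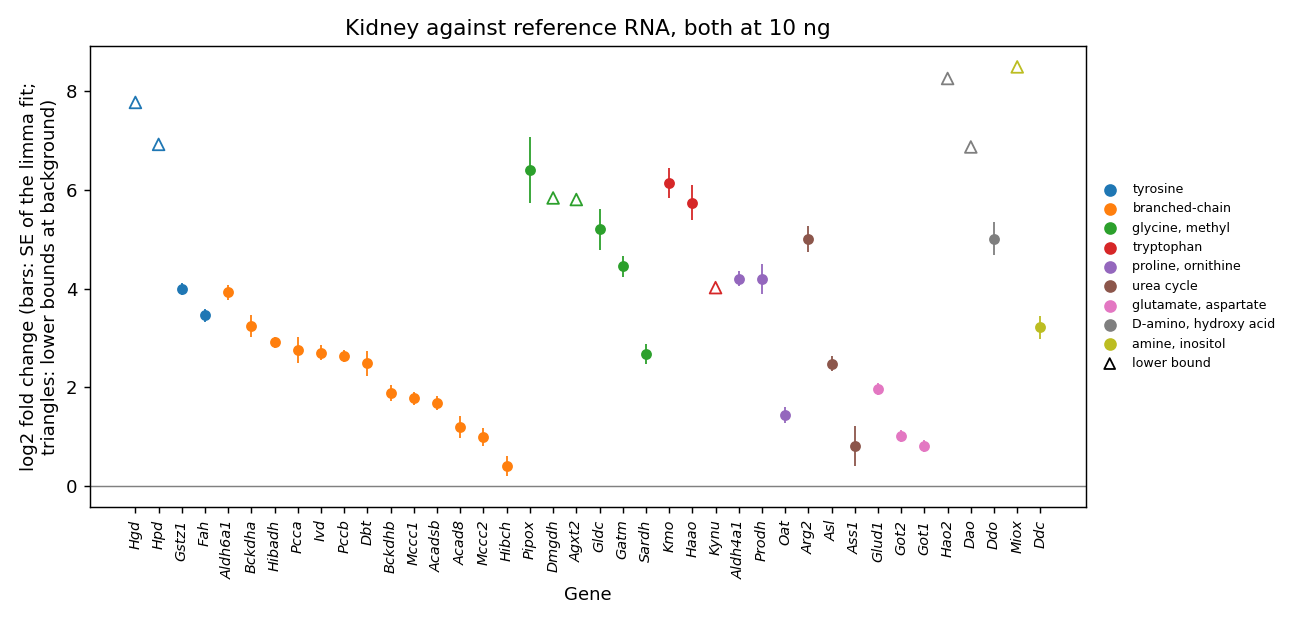
Kidney against reference log2 fold change at 10 ng for the 40 measured genes, grouped and coloured by amino acid and sorted within a group; points carry the SE of the limma fit (3 against 3 arrays), and open triangles mark the 8 genes below background on every reference array, placed at their lower bound. All 40 lie above 0, from 0.40 for Hibch upward, and only Hibch and Ass1 were not called.

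Further probe sets naming a member alone gave the same direction where they could be tested. There were 20 of them for 15 genes, of which 12 were tested, 10 called higher and 0 lower, and the 2 not called were those of Hgd and Hibch. The remaining 8 did not pass the filter, which averages log2 signals within a group. Among them a dim Got2 probe set was lower on every kidney array (22.6, 24.4 and 35.5) than on any reference array (44.1, 44.1 and 70.8). Of these kidney arrays 2 were below background. A dim Mccc2 probe set among the 8 was higher on every kidney array than on any reference array. The second Pcca probe set was near background in kidney and reference, and the mean of the pair differed by 0.86 on the log2 scale and was not called (limma adjusted p = 0.123). With all 12 arrays in 1 limma fit, Pcca, Acadsb and Ddc were not called (adjusted p = 0.0616, 0.057 and 0.0702). With each array centred on its median, Hibch was called (0.65, limma adjusted p = 0.0339).

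Kidney and reference RNA also differed in genes listed as markers of proximal tubule and of hepatocytes. All 15 proximal tubule markers, among them the endocytic receptor Lrp2 and the phosphate carrier Slc34a1, were called higher in kidney. Of all tested genes, 27.1% were called higher in this comparison. Their summed signal ran from 76747 to 78568 on the kidney arrays and from 2643 to 2976 on the reference arrays, where Lrp2, Slc22a8, Slc6a19 and Slc5a12 were below background on every array. Hepatocyte markers moved the same way: of 16 listed, 15 were measured, 10 tested and 9 called higher, with sums of 23459 to 23721 in kidney and 305.9 to 338.1 in the reference. Most of the kidney sum came from Ttr (mean 9682) and Cyp2e1 (mean 7615), whereas Alb averaged 136 in kidney and Tat and Fgb were below background on every kidney array. The hepatocyte sum is therefore not read as a content of hepatocytes. Of these markers Tat, Tdo2 and Cps1 also stand in the lists of neighbouring steps described next. The part of cell makeup in the differences above was not tested.

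Amino acid enzymes outside the member list were counted from 8 lists of neighbouring steps, also drawn up with earlier results known. Of 96 gene symbols listed, 78 had a probe set of their own and 69 were tested. Some genes stand there under an older and a newer symbol, as Mut and Mmut do, and only Mmut had a probe set. Of those 69, 58 rose, 6 fell and 5 were not called, where 27.1% of all tested genes were called higher and 35.6% lower. The median log2 fold change was 2.53 (2.43 at the background level). All 13 tested genes of the further branched-chain list rose (median 1.66). That list also holds Bckdk and Ppm1k, which regulate the entry complex and carry no step themselves. The 5 named next had the largest fitted changes. In lysine breakdown, Aass, the entry enzyme, was at least 149-fold and Aadat, an aminotransferase shared with tryptophan, at least 135-fold higher. The others were Cdo1, the cysteine dioxygenase (at least 58.9-fold), Qprt, which feeds kynurenine carbon into NAD (at least 37.6-fold), and Aspa, which splits acetylaspartate (log2 difference 6.30). The fitted order rests partly on reference signals under background. With those raised to it, Abat, the aminotransferase of GABA, Uroc1, the urocanase, and Acy3, an aminoacylase, which were added after their values were seen, differed by 6.03, 5.88 and 5.48 on the log2 scale, against 6.13 for Aspa, 5.88 for Cdo1 and 5.23 for Qprt.

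Of the 6 enzymes that fell, 2 build amino acids. Aldh18a1, which makes proline and ornithine precursors from glutamate, averaged 38.8 in kidney and 1119 in the reference (log2 difference -4.88). Of its kidney arrays 2 were below background, and the difference was -4.69 with those raised to it. Asns, the asparagine synthetase, averaged 289 and 5535 (log2 difference -4.31). The others that fell were breakdown enzymes or amine oxidases. Hao1, the liver glycolate oxidase, was at least 9.45-fold lower in kidney. On the log2 scale Asrgl1, an asparaginase, differed by -1.41 and Maoa, a monoamine oxidase, by -0.63 (limma adjusted p = 0.00862). Hal, the histidine ammonia-lyase, differed by -1.15, or -1.01 with the 2 kidney arrays below background raised to it.

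Kidney at 10 ng was also set against the reference at lower inputs, which changes tissue and input together and shares the kidney arrays. Against the 3 ng reference, 38 members were called higher and 0 lower, where 26.4% and 31.4% of all tested genes were called. Hibch (limma adjusted p = 0.103) and Ass1 (0.113) were again the members not called. Against the 0.3 ng reference, 35 were called higher and 0 lower, where 20.9% and 16.7% of all genes were called. At an unadjusted p under 0.05 all 40 were higher, where 48.5% of all tested genes passed in either direction. Median log2 fold changes were 3.61 and 3.95 against 3 ng and 0.3 ng, or 3.64 and 3.86 with signals raised to background.

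The 5 members not called against 0.3 ng included 3 in which 1 array stood apart from the others of its group. Prodh read 62.2, 931 and 108 on the 0.3 ng arrays, where array 2 approached the kidney level, and was not called (log2 difference 3.18, limma adjusted p = 0.0562). Ddc read 1.5, 30.1 and 663, from below background on 2 arrays to far above it on the other (log2 difference 4.74, limma adjusted p = 0.0795). Acadsb read 86.1, 797 and 469, with array 1 far below the others (log2 difference 2.65, limma adjusted p = 0.0526). In each of the 3, every kidney array was still above every 0.3 ng array. By comparison Got1, which was called with a log2 difference of 1.01, read 594, 332 and 562 on the 0.3 ng arrays.

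The reference RNA against itself at lower input addressed how the members behave when less RNA is amplified. Between 3 ng and 10 ng, 0 members were called higher and 0 lower by limma, as were 0% of all tested genes in either direction. At an unadjusted p under 0.05 there were 3 members, Bckdha, Asl and Dao, against 8.46% of all genes. The 3 largest fitted changes were those of Dao, Bckdha and Hgd, of which only Bckdha rests on measured levels at 3 ng on every array. With signals raised to background, Bckdha (1.46) and Ddo (0.95) were the furthest apart on the log2 scale and Hgd differed by 0.01. Dao read 5.7, 3.6 and 4.5 at 10 ng and 33.3, 32.9 and 27.3 at 3 ng, all below background, so no fold is given. Bckdha read 27.8, 28.9 and 46.0 at 10 ng and 105, 104 and 99.8 at 3 ng, without overlap, a log2 difference of 1.52 ± 0.21 (SE) that was not called (limma adjusted p = 0.22). At 0.3 ng the same probe set read 74.6, 16.3 and 4.3, which spans the 10 ng values. Hgd read 34.2, 33.7 and 15.3 on the 3 ng arrays, 2 of them barely above background, and lay below it on every 10 ng array.

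Between 0.3 ng and 10 ng, again 0 members were called higher and 0 lower by limma, where 0.0078% of all genes were called higher and 0.546% lower. At an unadjusted p under 0.05 there were 7 members (Dbt, Ivd, Mccc1, Aldh6a1, Pipox, Oat and Dao), against 13.4% of all genes. The median log2 change of the members was -0.52, or -0.27 with signals raised to background, and that of all tested genes -0.21. Pipox, Aldh6a1 and Pcca had the largest fitted changes. With signals raised to background the order was Aldh6a1 (-1.97), Oat (-1.22), Dbt (-1.16), Mccc1 (-1.13) and Pcca (-1.07), and Pipox differed by -0.67. Pipox read 11.5, 94.8 and 48.4 at 10 ng and 3.4, 2.4 and 19.2 at 0.3 ng, where every array was below background, at least 1.59-fold lower and not called (limma adjusted p = 0.319). Aldh6a1, well above background in both, read 561, 442 and 422 and 68.8, 174 and 146. Its highest 0.3 ng array was under its lowest 10 ng array, but the difference of -1.93 ± 0.40 (SE) was not called (limma adjusted p = 0.113). Pcca read 2.0, 216 and 143 at 0.3 ng, and its difference of -1.91 came with an SE of 1.39 because array 1 gave almost no signal.

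The 2 probe sets of Ivd differed in direction between 0.3 ng and 10 ng, and neither change was called. The log2 differences were 0.84 (limma adjusted p = 0.218) for the brighter and -1.62 (limma adjusted p = 0.136) for the other. The brighter Ivd probe set read 447, 577 and 521 at 10 ng and 944, 1102 and 749 at 0.3 ng, all higher at the lower input. The second Ivd probe set read 228, 290.0 and 316 at 10 ng and 61.5, 74.5 and 143 at 0.3 ng, all lower. In kidney both were above the reference, at 3213, 3739.9 and 3129 and 1681, 1532 and 1509.

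**Figure D3:**
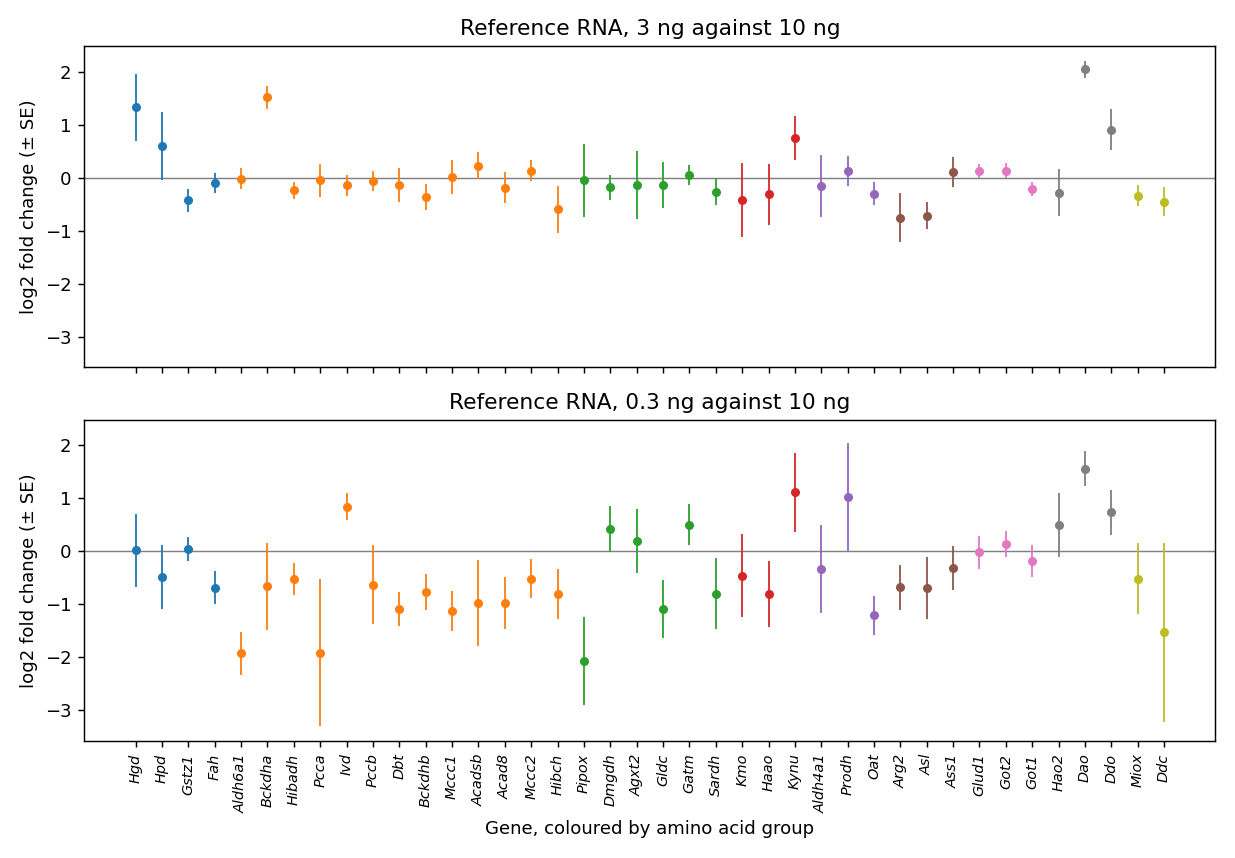
Log2 fold change (± SE of the limma fit, 3 against 3 arrays) of the 40 measured genes in the reference RNA, 3 ng against 10 ng in the upper panel and 0.3 ng against 10 ng in the lower. Error bars are longer in the lower panel, and no member was called in either.

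Replicate spread was larger at lower input. The median SD of log2 signals over the 40 members was 0.109 in kidney. In the reference it was 0.286 for 10 ng, 0.36 for 3 ng and 0.714 for 0.3 ng. Over all tested genes the same medians, in that order, were 0.199, 0.208, 0.265 and 0.612. The kidney and the 10 ng reference lay closer over the 22 members above background on every array, where the medians were 0.104, 0.193, 0.285 and 0.609. Single arrays at 0.3 ng stood far from the others of the group for Prodh, Ddc, Pcca and Acadsb, as given above, and for Pccb, which read 91.1, 53.5 and 419.8.

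Base composition around the transcription start was examined as a feature the list did not use. RefSeq promoters, 250 bases before to 50 after the start, were matched for 36 of the 41 members on GRCm38.p6, the first listed start being taken where a gene had several. That start was the gene's own start in the RefSeq gene table for 21 of the 36, and for the other 15, Hao2, Hgd and Dao among them, it was another position. The observed over expected CpG ratio compares the number of CpG in that window with the number its C and G content would give. Of the members, 12 had a ratio under 0.4, 6 between 0.4 and 0.6, and 18 at 0.6 or above. Median log2 fold changes in these classes, at the background level, were 5.94, 3.36 and 1.94. Over the 10308 tested genes with a promoter, the medians were 0.11, 0.02 and -0.26, and 41.3%, 32.5% and 22.2% were called higher. The CpG-poor members included Miox, Hao2, Hgd, Hpd, Dao and Pipox. The CpG-rich ones included Hibch, Got1, Ass1, Mccc2, Got2 and Acad8 at the low end of change, of which Hibch and Ass1 were not called. Others in that class had large changes: Dmgdh, with a ratio of 0.753, was at least 57.1-fold higher in kidney, and Gatm (ratio 0.799), Prodh (0.628) and Gstz1 (0.601) differed by 4.49, 4.26 and 4.01 on the log2 scale. Sardh and Ddc departed the other way, with ratios of 0.159 and 0.164 and log2 fold changes of 2.70 and 3.25.

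Across the 36 members the CpG ratio and the log2 fold change had a Pearson correlation of -0.63 and a Spearman correlation of -0.60. Over the 29 members with a single listed start they were -0.64 and -0.57. These are correlations across genes measured on the same arrays, which are not independent replicates, and no p is attached. Over the 10308 tested genes they were -0.20 and -0.14, and over the 2782 genes called higher -0.38 for both. Some of the 29 members, Hgd and Hao2 among them, had a listed start other than the gene's own. No correlation was taken over the 21 members whose listed start was the gene's own.

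**Figure D4:**
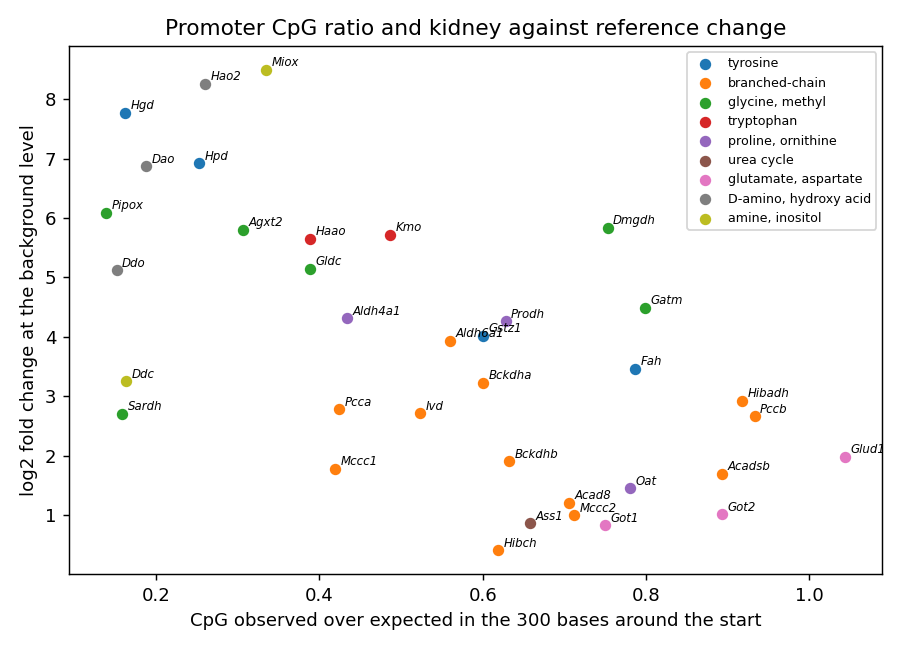
Observed over expected CpG ratio in the 300 bases around the start (x axis) against the kidney against reference log2 fold change at 10 ng with signals raised to background (y axis) for the 36 members with a RefSeq promoter; each point is 1 gene, coloured by amino acid group. Points fall from the upper left (Miox, Hao2, Hgd) to the lower right (Got2, Glud1), with Dmgdh and Gatm high among the CpG-rich genes.

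Motifs named for factors of kidney and liver epithelium were looked for in the same 300 bases on both strands. The letters CAAAGTCCA, a motif of the nuclear receptor HNF4, were found in 2 of 36 members (5.56%), Agxt2 and Pipox. They were found in 0.477% of 27025 mouse promoters and in 0.437% of those of tested genes. In Agxt2, which has 2 listed starts, they lie before the first of these but overlap the start given in the gene table.
GTTAAT, a core of the palindromic site of HNF1, was found in 4 members (11.1%), Haao, Got2, Hao2 and Miox. It was found in 7.2% of all promoters and in 4.35% of those of tested genes. TATAAA within the 50 bases before the start was found only in Miox among the members (2.78%). The share was 2.88% over all promoters and 1.87% over those of tested genes. A match is a description of the letters in this window.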

How the data were processed

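The deposited values are linear intensities, 1 for each of 45101 probe sets on each of 12 arrays. The values show that every array has a 2% trimmed mean of 500. How the authors summarised probes, corrected background, amplified the RNA and with which software is unstated in the labels. Values were used as deposited, and log2 was taken after adding 3.9, the 10th percentile of positive values. The 64 control probe sets were left out. Testing was limited to the 27022 probe sets with a highest group mean, averaged as log2, over a signal of 65.4, which is the 40th percentile. A platform table gave 34945 probe sets 1 gene symbol, 932 several and 9160 none. Among probe sets with only that gene's symbol, the one brightest on average (log2) stood for the gene. Background was the 95th percentile over 27 Bacillus controls.

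Each comparison was a two-sided limma 3.58.1 fit (lmFit and eBayes, R 4.3.3) on its own 6 arrays without covariates, since spread may change with input, and each fit takes 1 variance for both groups. P-values were adjusted by Benjamini-Hochberg over the tested probe sets. Fits were tested on simulated data. Precision is limited by the number of arrays. The members, gene lists and tests were chosen with earlier results of these data known. Per-array values are given for up to 4 members of a group with the largest change and for those not called. Alternatives changed the pseudocount, scaling, filter, probe set rule, array weights, fit and replicates. Promoters came from a RefSeq table of GRCm38.p6.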

Additional observations from a re-analysis of the deposited data

How the results depend on the processing

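The count of members called higher in kidney against reference at 10 ng ranged from 35 to 39 over the alternatives. Against 3 ng the count ranged from 36 to 39 and against 0.3 ng from 28 to 39. No member was called lower in these 3 comparisons under any alternative run. At 10 ng no member changed sign, and signs under the alternatives were not recorded against 3 ng and 0.3 ng. The median log2 fold change ranged from 3.14 to 3.60. The lowest count against 0.3 ng, 28, came from leaving out a kidney array. With all arrays in 1 fit, 1 member was called higher at 3 ng than at 10 ng in the reference (Dao), 1 was called higher at 0.3 ng (Dao) and 2 lower (Aldh6a1 and Oat). Dao was below background throughout, and the cause was not tested. The same fit no longer called Pcca (limma adjusted p = 0.0616), Acadsb (0.057) and Ddc (0.0702) in kidney against reference at 10 ng, and averaging all probe sets of a gene no longer called Pcca (log2 difference 0.86, limma adjusted p = 0.123). Hibch was called with arrays centred on their medians (0.65, limma adjusted p = 0.0339). That scaling moved the median log2 fold change of all tested probe sets from -0.34 to -0.09. Samples sharing a replicate number did not deviate together (correlations -0.063 to 0.016 over 18 pairs, against -0.029 to 0.036 over 36 pairs of unlike number). With the replicate block, 38 members were called higher at 10 ng and 30 against 0.3 ng. With 3 arrays a group, and tests at 0.3 ng that assume equal spread where it was not equal, small differences cannot be resolved there, and for members under background only bounds can be given.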
